A study of Mus musculus with 3 samples.

Results

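The 9 C-type lectin receptor genes Clec4e, Clec4d, Clec4n, Clec5a, Clec7a, Clec12a, Clec4a1, Clec4a2 and Clec4a3 were taken by symbol from a list of receptors of myeloid cells, and are 9 of the 55536 genes measured. RNA was sequenced from the cytosolic fraction of mouse bone marrow-derived macrophages in 3 libraries, which form 1 group. The cells were of strain C57BL/6J. A first exposure to 100 ng/ml Lipid A, the part of lipopolysaccharide that Toll-like receptor 4 senses, lasted 12 h. After a further 12 h without it, a second exposure at 100 ng/ml lasted 50 min, when the cells were taken. Every library had this history, so no unstimulated cells stand beside it here and no value below is a response to Lipid A. Total RNA (1 µg) was depleted of ribosomal RNA, and fragments of 250 to 400 bases were sequenced. Sex and age were not recorded. The libraries are labelled as biological replicates from separate samples of 1 donor entry. Nothing says that they came from separate animals, so the p-values below measure only the spread between these libraries.

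C-type lectin receptors are single-pass membrane proteins with an extracellular C-type lectin-like domain, by which myeloid cells bind sugars and lipids of microbes and debris of dead cells. One branch activates. Mincle (Clec4e), MCL (Clec4d) and Dectin-2 (Clec4n) pair with the Fc receptor gamma chain (Fcer1g), MDL-1 (Clec5a) pairs with DAP12 (Tyrobp), and Dectin-1 (Clec7a) carries a signalling motif in its own tail. All of these recruit the kinase Syk, which signals through Card9, Bcl10 and Malt1. The other branch inhibits: MICL (Clec12a) and DCIR (Clec4a2) carry tail motifs that recruit the phosphatases Ptpn6 and Ptpn11. Clec4a1 and Clec4a3 belong to the DCIR group.

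The genes do not each make 1 mRNA. In 6 of them, transcripts that hold an internal exon were measured beside transcripts that lack it, and those exons are shown here because the transcript shares below turn on them. Capitals mark the exon and lower case the 15 transcript bases on each side, 5′ to 3′ on the gene's strand, from GENCODE M21 transcripts on mm10. The coordinates are those of the capitals.
Clec7a exon, chr6:129468869-129469003 (minus strand): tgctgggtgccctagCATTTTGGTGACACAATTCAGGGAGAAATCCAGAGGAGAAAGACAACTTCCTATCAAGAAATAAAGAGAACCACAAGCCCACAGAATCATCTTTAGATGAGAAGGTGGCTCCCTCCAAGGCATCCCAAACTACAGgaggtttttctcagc
Clec4n exon, chr6:123232093-123232194 (plus strand): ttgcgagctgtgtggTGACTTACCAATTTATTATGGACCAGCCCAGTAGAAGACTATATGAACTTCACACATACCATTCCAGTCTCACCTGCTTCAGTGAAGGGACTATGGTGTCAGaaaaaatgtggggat
Clec4a2 exon, chr6:123139057-123139128 (plus strand): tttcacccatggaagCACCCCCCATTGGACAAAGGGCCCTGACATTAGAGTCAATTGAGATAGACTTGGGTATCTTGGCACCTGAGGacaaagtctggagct
Clec5a exon, chr6:40584356-40584430 (minus strand): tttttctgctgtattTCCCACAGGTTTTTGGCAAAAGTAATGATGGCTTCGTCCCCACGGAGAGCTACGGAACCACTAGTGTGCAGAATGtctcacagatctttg
Clec4d exon, chr6:123267992-123268068 (plus strand): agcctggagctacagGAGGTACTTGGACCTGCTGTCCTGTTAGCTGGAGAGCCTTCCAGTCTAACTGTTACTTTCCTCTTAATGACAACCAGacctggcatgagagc
Clec4e exon, chr6:123286432-123286518 (minus strand): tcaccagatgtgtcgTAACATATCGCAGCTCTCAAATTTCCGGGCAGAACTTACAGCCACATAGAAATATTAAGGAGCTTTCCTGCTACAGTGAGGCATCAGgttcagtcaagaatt
The Clec7a exon has 135 bases, the Clec4n exon 102, the Clec4a2 exon 72, the Clec5a exon 75 and the Clec4e exon 87, all multiples of 3. The Clec4d exon has 77 bases and leaves a remainder of 2, so leaving it out shifts the reading frame.

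All members lie on chromosome 6 (mm10). Clec4a1 (122921848 to 122934619), Clec4a3 (122952515 to 122969875), Clec4a2 (123106428 to 123143999), Clec4n (123229843 to 123247021) and Clec4d (123262111 to 123275265) are on the plus strand. Clec4e (123281789 to 123289870) follows on the minus strand and closes a run of 368 kb that holds 6 members. Clec12a (129342691 to 129365303, plus strand) and Clec7a (129461591 to 129472779, minus strand) are the ends of another run, and Clec5a (40574894 to 40585821, minus strand) stands alone. The annotation classes Clec7a as a polymorphic pseudogene, a gene intact in some strains and broken in others. It still gives 3 of its transcripts a reading frame, but Clec7a-204 among them is itself classed as a polymorphic pseudogene. The exon printed above is from Clec7a-204 and, with its flanks, holds a stop codon (TGA, TAG or TAA) in every frame.

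All 9 genes reached 1 TPM (a transcript's share of all transcripts after correction for length) in every library. Among 22028 protein-coding genes, 41.1% did. The members' median was 77.5 ± 13.1 TPM (SD, n = 3), beside 9.12 ± 1.61 TPM for the protein-coding genes that reached that level. Members were chosen as receptors of these cells, so this height is a description. From Clec4e to Clec5a their means spanned 14.2-fold.

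Clec4e, which binds trehalose dimycolate of mycobacteria, had the highest mean, at 302, 102 and 258 TPM in replicates 1, 2 and 3 (221 ± 105, SD, n = 3). Its replicate 2 lies far below the other 2 libraries. Clec4d, the partner with which Mincle forms a complex, stood at 172, 77.6 and 141 TPM (130 ± 47.95). Clec4n, which binds fungal mannans, was much lower, at 30.6, 11.3 and 25.5 TPM (22.5 ± 10.03). Clec5a, which binds dengue virus, was the lowest member, at 19.7, 9.30 and 17.7 TPM (15.6 ± 5.53). In all 4 genes replicate 1 was highest and replicate 2 lowest; on this scale replicate 2 was lowest in 8 of the 9 members.

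Clec7a, the receptor for fungal beta-glucan, had 37.2, 23.5 and 28.4 TPM (29.7 ± 6.94). Clec12a, an inhibitory receptor for uric acid crystals, had 87.2, 62.6 and 82.8 TPM (77.5 ± 13.1). In the DCIR group, Clec4a1 had 161, 153 and 221 TPM (178 ± 37.1) and Clec4a3 had 120, 112 and 168 TPM (133 ± 30.2). These 2 genes were highest in replicate 3. Clec4a2 had 37.3, 39.9 and 41.9 TPM (39.7 ± 2.32), the narrowest spread of the 9 on this scale.

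**Figure D1:**
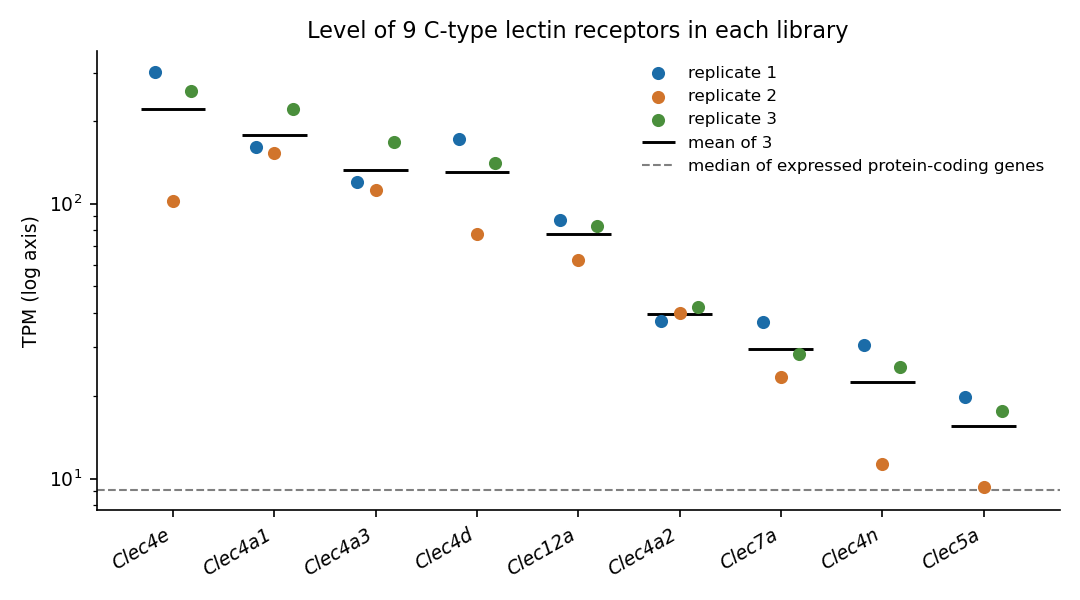
TPM of each receptor gene (log axis), with 1 point per library, a black bar at the mean of 3 and a dashed line at the median of expressed protein-coding genes (9.12 TPM). Clec4e has the highest mean (221 TPM) and Clec5a the lowest (15.6 TPM), and replicate 2 is the lowest point of 8 of the 9 genes, all but Clec4a2.

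The order of the levels was compared between neighbours within each library, as the difference in log2(TPM + 1), by a two-sided exact permutation test that flips signs. With 3 libraries its smallest p is 0.25, so no difference could pass 0.05. Across 17 pairs of genes compared, 15 had 1 direction in all 3 libraries (p = 0.25 in this exact test, adjusted p = 0.28). Both exceptions were neighbours. Clec4e exceeded Clec4a1 by 0.19 ± 0.74 (SD, n = 3) on the log2 scale, with replicate 2 the other way. Clec4a3 exceeded Clec4d by 0.08 ± 0.54, with replicate 1 the other way (p = 0.75 in each of these exact tests). Clec4e and Clec4a1, and likewise Clec4a3 and Clec4d, are therefore not ordered by these libraries.

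The remaining neighbours differed by more than their SD. Clec4a1 exceeded Clec4a3 by 0.42 ± 0.03, the tightest of these differences. Clec4d exceeded Clec12a by 0.68 ± 0.34, Clec12a exceeded Clec4a2 by 0.93 ± 0.28, and Clec4n exceeded Clec5a by 0.45 ± 0.18 (0.27 in the kallisto-layout table, a second quantification). The excess of Clec4a2 over Clec7a (0.43 ± 0.38) was close to nothing in replicate 1, where the genes stood at 37.3 and 37.2 TPM. Without replicate 2 that excess was 0.28. Clec7a exceeded Clec4n by 0.47 ± 0.46, barely more than its SD, and by 0.21 without replicate 2.

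Pairs chosen by function were compared on the same scale. Mincle mRNA exceeded that of its partner MCL by 0.69 ± 0.26. Dectin-2 mRNA, from the gene next to Clec4d, was far below that of Clec4d (a difference of -2.52 ± 0.14). The activating receptor Clec7a was below the inhibitory Clec12a in the other run (-1.37 ± 0.15). Clec5a was the farthest from Clec4e (-3.66 ± 0.29). Within the DCIR group Clec4a2 was below Clec4a3 (-1.70 ± 0.26). Clec4n was below Clec4a2 with a spread nearly as large as the gap (-0.90 ± 0.75), and the difference was -0.49 without replicate 2.

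TPM depends on what else was sequenced. Protein-coding genes summed to 333050, 260714 and 370028 TPM in replicates 1, 2 and 3. In CPM (a gene's share of all counts) after TMM scaling, which takes most genes to be equal between libraries, 4 of 9 members were lowest in replicate 2. The spread between libraries is therefore described in CPM, which is not corrected for length and is compared only within a gene. The libraries held 47972048, 54409437 and 53491936 expected counts, and the members' mean counts ran from 1674 (Clec4n) to 38010 (Clec4e).

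In CPM the receptors fell into sets with different orders of the libraries. Clec4e had 1037, 440 and 738 CPM in replicates 1, 2 and 3, and Clec4d had 232, 146 and 201. Clec4n had 41.8, 20.98 and 34.7 CPM, and Clec5a had 43.7, 26.2 and 35.7. These 4, the receptors that signal through Fc receptor gamma or DAP12, were highest in replicate 1 and lowest in replicate 2, an order found in 12.1% of the 13827 genes tested. The order was not particular to them, since the lectins Clec2d and Mrc1, described below, had it too. Replicate 2 was lowest in 29.2% of all genes tested.

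The DCIR group ran otherwise. Clec4a1 had 301, 385 and 413 CPM, Clec4a3 had 166, 212 and 239, and Clec4a2 had 47.5, 70.8 and 51.8. All 3 were lowest in replicate 1, as were 38.2% of all genes tested. Clec7a (82.5, 69.8 and 63.9 CPM) and Clec12a (276, 268 and 262) were lowest in replicate 3, as were 32.6%. Clec12a thus moved by 1.05-fold between its extreme libraries and Clec4e by 2.36-fold. The CPM of Clec4e includes reads on its transcripts that keep introns, given below. In bulk RNA, fewer cells with a receptor and less of its RNA per cell cannot be told apart.

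**Figure D2:**
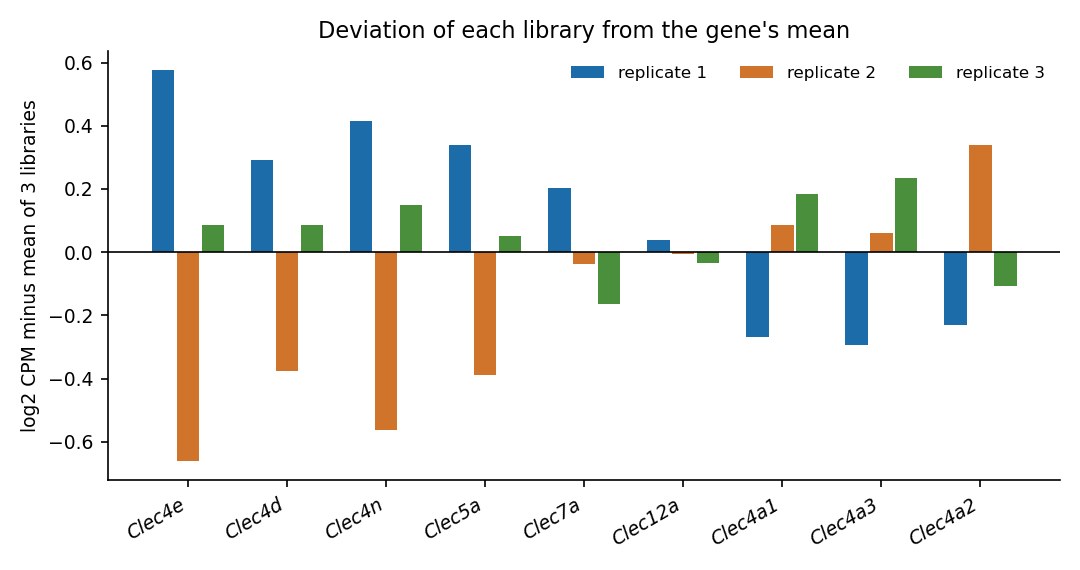
Bars give log2 CPM of each library minus the gene's mean over 3 libraries, for receptors ordered by signalling partner. Clec4e, Clec4d, Clec4n and Clec5a are highest in replicate 1 and lowest in replicate 2, the 3 Clec4a genes are lowest in replicate 1, and Clec12a stays within 0.04 of its mean.

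All 9 members varied between the libraries by more than counting error (Poisson heterogeneity test over all genes averaging 10 counts or more, Benjamini-Hochberg adjusted p under 0.05). So did 70.4% of all genes tested, so this is the usual state of a gene here. The largest adjusted p among members in that test over all genes was 0.000379, for Clec12a. Without replicate 1, 8 members were called, and Clec12a was the exception (adjusted p = 0.156 in the same test over all genes). The share of all genes tested that was called without replicate 1 was also well below 70.4%. The biological coefficient of variation (edgeR) estimates the SD between libraries beyond counting error as a share of the mean. Each gene's estimate is drawn towards that of genes at a similar level, so it is not the gene's own SD. It was 0.291 for Clec4e, higher than in 72.4% of genes tested, and 0.236 for Clec4n. It was 0.189 for both Clec4d and Clec5a, and between 0.167 and 0.170 for the 3 Clec4a genes. Clec7a (0.133) and Clec12a (0.132) had the lowest estimates. The CPM itself was 72.1 ± 9.49 for Clec7a, 269 ± 6.74 for Clec12a and 738 ± 299 for Clec4e (SD, n = 3). Clec12a thus varied less than its estimate and less than Clec7a. The members' median was 0.170 and that of all genes tested 0.166. With the filter lowered to an average of 1 count these became 0.166 and 0.261. With it raised to an average of 100 counts they were 0.172 and 0.143, so which median is higher depends on the filter.

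The 3 genes whose CPM pattern over the 3 libraries lay closest to that of Clec4e among 13826 others were Il7r, 9130230L23Rik and Gm7008. Their Euclidean distances from it, in log2 deviations from the gene's mean, were 0.0135, 0.0412 and 0.0425. With only 3 libraries, 9 genes came within 0.1. Il7r, the interleukin-7 receptor chain, had a mean of 5.37 TPM.

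The receptors' mRNA forms were measured as shares of each gene's TPM in the first transcript table, with a second transcript table in the layout that kallisto writes as the comparison. Clec4a1 had 1 annotated transcript. Clec12a-201 held 97.5% ± 1.68 (SD, n = 3) of Clec12a. Clec4a3 was split between Clec4a3-201 (65.0% ± 4.17) and Clec4a3-202 (31.1% ± 4.08), which encode reading frames of equal length (711 bases).

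Clec7a-201 and Clec7a-204 hold the 135-base exon of the stalk between membrane and lectin domain. Of the TPM on these and Clec7a-202, they made up 70.6%, 69.9% and 72.5% in replicates 1, 2 and 3 (71.0 ± 1.35). This is not a share of mRNA for a full-length receptor. Clec7a-204, classed as a polymorphic pseudogene, held 45.3% ± 5.64 of the gene, and Clec7a-201, classed as protein-coding, held 25.4% ± 6.94. The full-length and stalkless receptors are known as the A and B forms of Dectin-1. In the kallisto-layout table the share with the exon was 71.5% ± 1.13. The stalkless transcript, Clec7a-202, is annotated with a last exon of 142 bases against 1577 bases in the other 2, so reads from the 3′ end could be given only to the forms with the stalk. Clec7a-201 and Clec7a-204 both hold the exon and differ outside their 5′ ends at 8 bases within 9, so the split between those 2 rests on few reads.

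Clec4n transcripts with the 102-base exon made up 71.5%, 71.4% and 72.9% of Clec4n-201 and Clec4n-202 together (71.9 ± 0.844). In the kallisto-layout table the share was 75.2% ± 1.33. The gene's own CPM varied 1.99-fold. The 72-base exon of Clec4a2 was in the smaller share, at 35.9%, 32.5% and 23.9% (30.8 ± 6.17), and 29.0% ± 5.54 in the kallisto-layout table. Its main transcript, Clec4a2-204, lacks the exon and held 57.1% ± 8.02 of the gene. The 75-base exon of Clec5a was in 57.7%, 60.1% and 72.1% (63.3 ± 7.74) of the TPM of Clec5a's 3 coding transcripts, and in 69.5% ± 5.19 by the kallisto-layout table. Last exons differ here too. They have 231 bases in Clec5a-203, 3187 in Clec5a-202 and 1364 in Clec5a-201, and 154 in Clec4a2-204, 496 in Clec4a2-201 and 1637 in Clec4a2-202. Reads from the 3′ end could thus be given to some forms only, and their part in these genes' shares was not tested. Replicate 3 was the low library for the Clec4a2 exon and the high one for the Clec5a exon.

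Not all of these RNAs encode a receptor. Clec5a-201, a transcript with no annotated reading frame, held 64.7%, 63.7% and 59.2% of Clec5a (62.5 ± 2.93), and coding transcripts the remainder. For Clec4d, the transcript that skips the 77-base exon, Clec4d-203, is annotated as a target of nonsense-mediated decay and held 22.6%, 23.3% and 19.5% of the gene (21.8 ± 2.00). Of Clec4d-201 and Clec4d-203 together, 77.6% ± 2.35 held the exon. In the kallisto-layout table that share was lower, at 68.9% ± 1.02. The 87-base exon of Clec4e was in 96.6% ± 1.37 of Clec4e-201 and Clec4e-207 together, and in 88.5% ± 4.03 by the other table. In both genes the last exons differ, with 608 bases in Clec4d-201 and 266 in Clec4d-203, and 1908 in Clec4e-201 and 206 in Clec4e-207. The part of reads from the 3′ end in these shares was not tested.

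**Figure D3:**
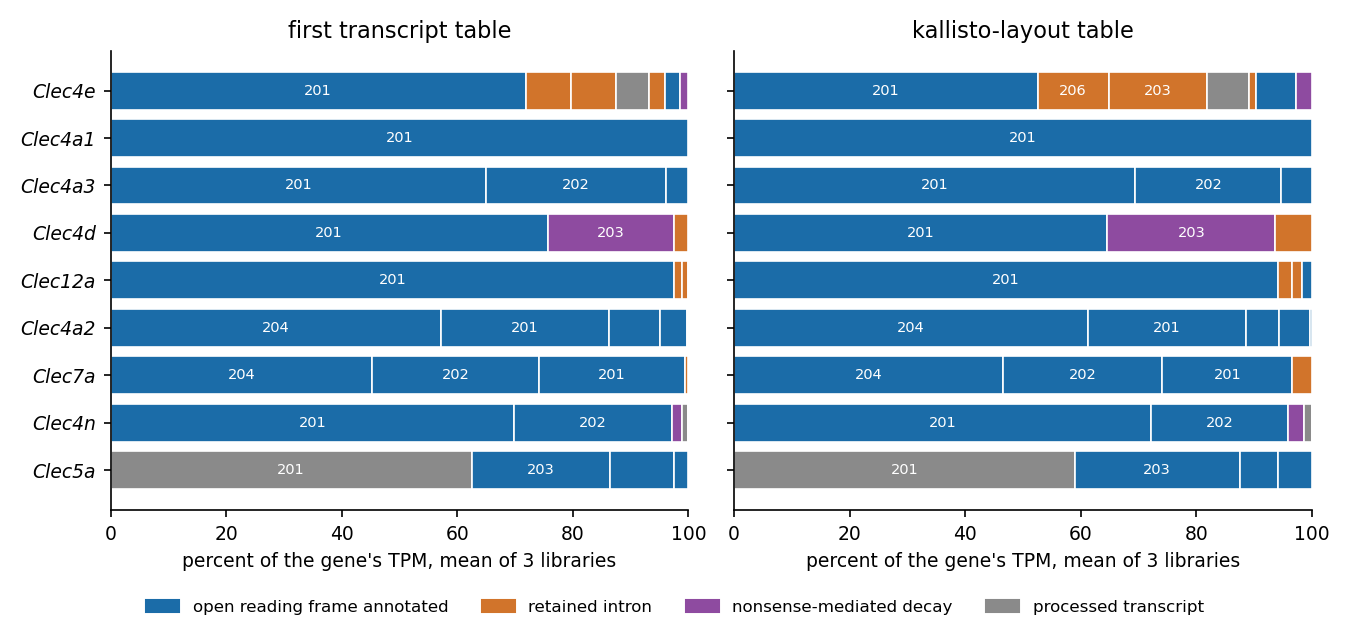
Stacked bars give the mean percent of each gene's TPM on each annotated transcript over 3 libraries, by the first transcript table (left) and the kallisto-layout table (right), with numbers naming transcripts of at least 12% and colours the transcript class. Clec5a is mainly Clec5a-201, which has no reading frame, and the share of Clec4e-201 falls from 71.9% to 52.5% between tables.

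Clec4e also had the most RNA on retained-intron transcripts, models that keep intron sequence, among the receptors with such a model annotated. Clec4e has 3 of them, Clec12a 2, and Clec4d and Clec7a 1 each. The other members have none, so no share could be measured for them. The 3 models of Clec4e held 27.5%, 15.6% and 12.2% of its TPM in replicates 1, 2 and 3, and 40.8%, 28.8% and 22.0% by the kallisto-layout table. All protein-coding genes together stood at 4.21%, 3.27% and 3.20%. They stood at 5.31%, 3.62% and 3.36% by the kallisto-layout table. Clec4d had 5.45%, 1.38% and 0.879%, with a mean of 2.57% in this table and 6.30% in the kallisto-layout table, below the mean of all protein-coding genes in the one and above it in the other. Clec12a had 4.22%, 2.27% and 0.870%. In these 3 receptors replicate 1 was highest and replicate 3 lowest, in both tables, as in all protein-coding genes together. Clec7a was lowest in replicate 1 in both tables, with 0.323%, 0.596% and 0.599% in the first and 2.14%, 3.71% and 4.22% in the kallisto-layout table, so its level depends on the table.

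RNAs that are known to stay in the nucleus had levels in the same order of libraries as the retained-intron share of Clec4e. A level and a share are unlike measures. Malat1 had 5966, 3089 and 1426 CPM in replicates 1, 2 and 3, Neat1 had 636, 248 and 128, and Xist had 610, 194 and 53.0. Their part in the retained-intron shares was not tested. Clec4e as a whole had another order, lowest in replicate 2. Its spliced transcript Clec4e-201 had 199, 78.2 and 189 TPM, also lowest in replicate 2 but nearly level between replicates 1 and 3. Its expected counts were 32578, 18345 and 30592. Those of the retained-intron models were 10695, 2701 and 2411 (Clec4e-206), 5268, 1186 and 707 (Clec4e-205), and 3917, 1335 and 2866 (Clec4e-203). The CPM of Clec4e counts all of these, so its excess in replicate 1 over replicate 3 lies partly on retained-intron models. As levels in TPM these models did not share the order of the nuclear RNAs. Clec4e-206 had 39.6, 6.98 and 9.07 TPM and Clec4e-203 had 27.3, 6.50 and 20.2, both lowest in replicate 2. Clec4e-205 had 16.1, 2.54 and 2.20 TPM, lowest in replicate 3.

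**Figure D4:**
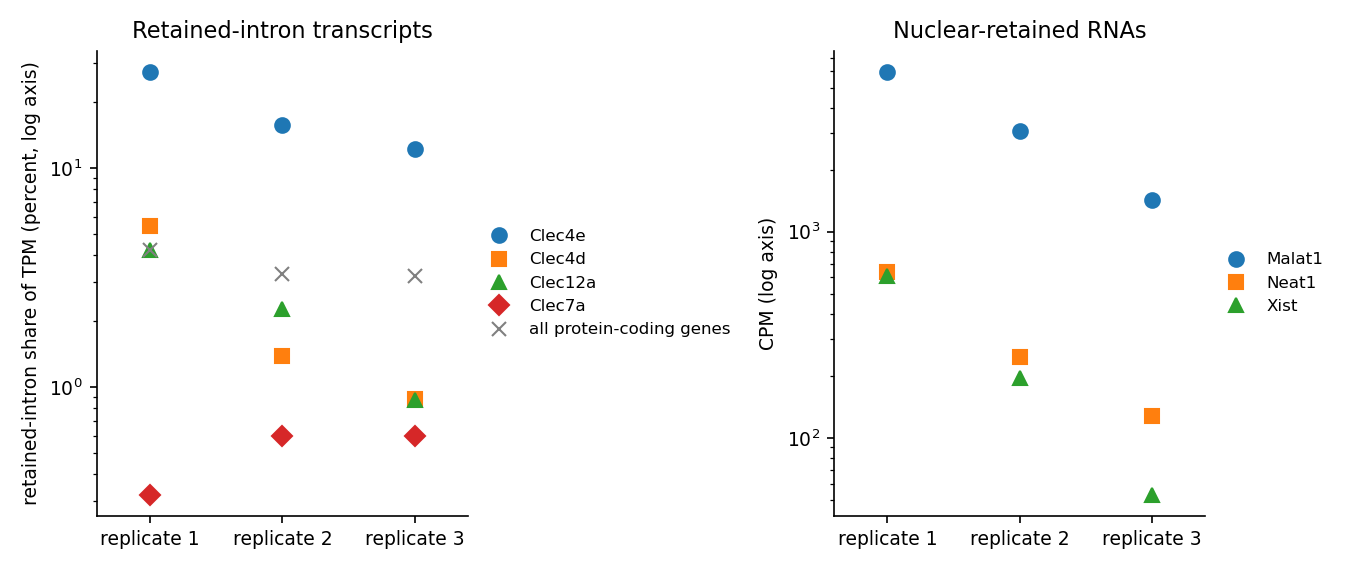
Left, percent of TPM on retained-intron transcripts in each library (log axis) for 4 receptors and for all protein-coding genes; right, CPM of 3 nuclear-retained RNAs (log axis). Clec4e, Clec4d, Clec12a, all protein-coding genes together, Malat1, Neat1 and Xist are highest in replicate 1 and lowest in replicate 3, while Clec7a is lowest in replicate 1.

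Neighbours on the chromosome were not at like levels. Within the run from Clec4a1 to Clec4e, 3 further lectin genes were near or below 1 TPM. Clec4a4 had 0.93 ± 0.24 TPM, Clec4b1 had 0.61 ± 0.06 and Clec4b2 had at most 0.01 in any library. Between Clec12a and Clec7a, Clec1b had 0.47 ± 0.03 TPM, and Clec12b, Clec9a and Clec1a had at most 0.23 TPM in any library. Upstream of Clec4a1, C3ar1, the receptor for complement C3a, had a mean of 257 TPM, while the 8 vomeronasal receptor genes that follow Clec4e were all listed at 0. Reads that could belong to more than 1 gene left the members' counts nearly untouched: the deposited posterior SD of the count was 0 for 8 members and at most 0.43 reads for Clec4a2. Only Clec4a2 overlaps another annotated gene, the processed pseudogene Gm44132, which had 0 counts.

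**Figure D5:**
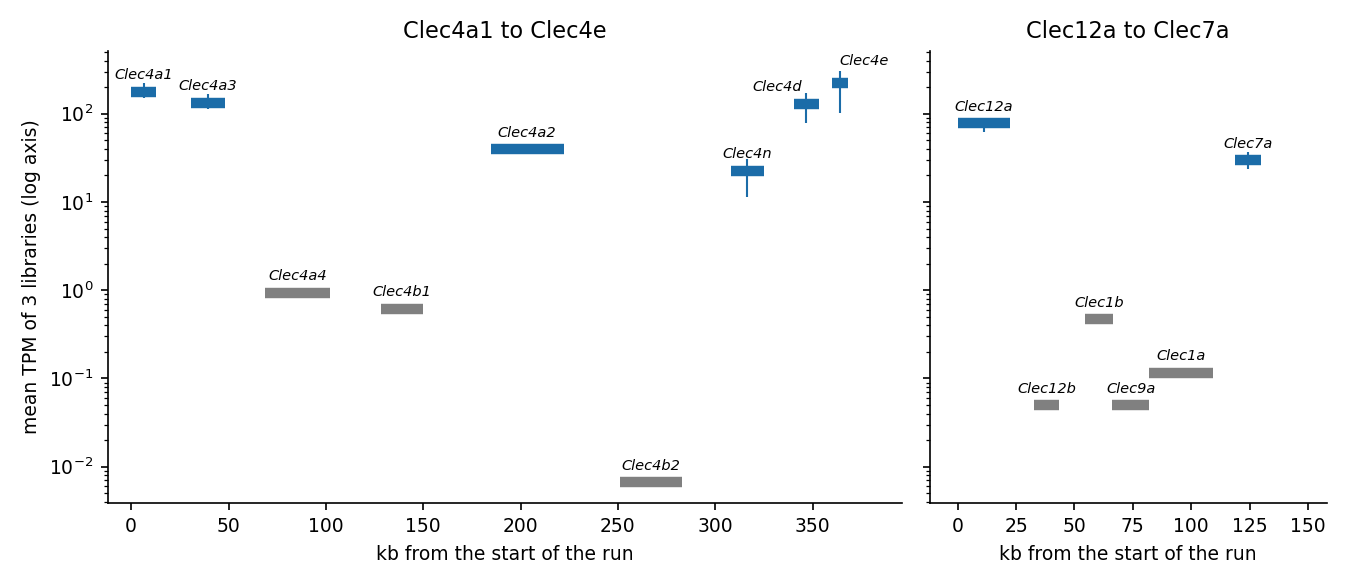
Mean TPM (log axis) of protein-coding lectin genes against distance in kb from the start of each run on chromosome 6; bar length is gene length, blue marks the receptors described, grey other genes, and thin lines the range over libraries. The 6 receptors of the left run have means of at least 22.5 TPM and the 3 grey genes between them below 1 TPM.

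Promoters of Clec4e, Clec4d and Clec5a are shown because these genes shared an order of libraries, and that of Clec4a1 because it opens the same run with another order. Each has 250 bases before and 50 after the annotated start (RefSeq, GRCm38.p6), read 5′ to 3′ on the gene's strand. Capitals mark GAGGAA or its complement TTCCTC, a core that the macrophage factor PU.1 can bind.
Clec4e promoter, chr6:123289822-123290121 (minus strand): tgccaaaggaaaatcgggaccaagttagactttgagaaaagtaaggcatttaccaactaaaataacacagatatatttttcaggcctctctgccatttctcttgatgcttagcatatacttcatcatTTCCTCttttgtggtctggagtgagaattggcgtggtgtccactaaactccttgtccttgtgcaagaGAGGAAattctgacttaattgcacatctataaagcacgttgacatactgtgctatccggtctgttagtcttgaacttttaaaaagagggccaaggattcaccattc
Clec4d promoter, chr6:123261857-123262156 (plus strand): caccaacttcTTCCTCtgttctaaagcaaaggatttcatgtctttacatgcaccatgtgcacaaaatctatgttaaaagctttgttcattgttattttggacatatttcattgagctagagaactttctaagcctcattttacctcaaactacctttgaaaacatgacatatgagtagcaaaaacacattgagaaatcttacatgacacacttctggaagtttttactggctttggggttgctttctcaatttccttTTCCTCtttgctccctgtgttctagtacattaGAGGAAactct
Clec5a promoter, chr6:40585756-40586055 (minus strand): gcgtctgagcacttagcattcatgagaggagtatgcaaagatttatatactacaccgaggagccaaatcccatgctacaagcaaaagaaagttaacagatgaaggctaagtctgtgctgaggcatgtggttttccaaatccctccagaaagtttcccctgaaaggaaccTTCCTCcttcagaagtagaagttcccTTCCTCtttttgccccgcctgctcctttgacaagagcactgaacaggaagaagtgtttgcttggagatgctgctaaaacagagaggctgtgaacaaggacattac
Clec4a1 promoter, chr6:122921598-122921897 (plus strand): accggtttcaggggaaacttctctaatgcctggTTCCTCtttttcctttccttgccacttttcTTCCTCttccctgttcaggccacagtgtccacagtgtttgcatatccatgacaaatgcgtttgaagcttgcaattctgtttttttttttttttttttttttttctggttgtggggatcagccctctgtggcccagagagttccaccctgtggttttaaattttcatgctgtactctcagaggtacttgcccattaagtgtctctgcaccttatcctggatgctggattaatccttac
RefSeq windows matched 8 of the 9 genes, in 10 windows, and Clec4n had none. GAGGAA was found on either strand in 7 of 8 genes (8 of 10 windows), all but Clec4a2, beside 28.3% of 32851 promoter windows of that length. Spi1, which encodes PU.1, had 104 ± 17.9 TPM. In Clec4e the core stood 123 and 56 bases before the start.

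Other motifs were searched on both strands of the same windows. TATAAA was in 4 genes, Clec4a2, Clec4e, Clec5a and Clec7a, beside 13.6% of all windows, and in Clec4e it began 29 bases before the start. A C/EBP motif, TTGCNNAA, was in Clec12a and Clec4e, beside 10.8% of windows. An AP-1 motif, TGANTCA, was in Clec12a and Clec4a2, beside 7.81%. An NF-kB motif, GGGNNTTCC, was in Clec4a3 alone, beside 5.82%. An interferon response motif, GAAANNGAA, was in Clec4d alone, beside 8.56%, where it overlaps a TTCCTC. None of these motifs was in Clec4e, Clec4d and Clec5a and in no other receptor gene with a window. A match is a stretch of letters, and binding was not measured.

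The signalling partners were abundant. Of 22 listed, 20 reached 1 TPM in every library, with a median of 25.1 ± 4.85 TPM. Fcer1g, the adaptor of Mincle, MCL and Dectin-2, had 1378, 1275 and 1632 TPM (1429 ± 183, SD, n = 3). It exceeded Clec4e by 2.82 ± 0.73 on the log2 scale of TPM + 1, and Tyrobp by 1.25 ± 0.08. Tyrobp, the adaptor of MDL-1, had 602 ± 98.7 TPM. The phosphatase Ptpn6 had 125 ± 20.8 TPM and Syk had 90.6 ± 15.9, a difference of -0.46 ± 0.16 for Syk minus Ptpn6. The lowest, Fgr, had 0.65 ± 0.22 TPM.

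In CPM 14 of the 22 partners were lowest in replicate 1, 8 in replicate 2 and 0 in replicate 3, beside 38.2%, 29.2% and 32.6% of all genes tested. The order of Clec4e, Clec4d, Clec4n and Clec5a, highest in replicate 1 and lowest in replicate 2, was found in 3 of the 22 (12.1% of all genes), Malt1, Bcl10 and Rasgrp3, which were named after their values were seen. Fcer1g had 873, 1097 and 1069 CPM, so it was lowest where Clec4e was highest. Syk was nearly level, at 635, 651 and 667 CPM. The test over all genes called 21 of 22 (70.4% of all genes), and the exception was Card9, at 23.2, 22.1 and 23.8 CPM (adjusted p = 0.246 over all genes in the heterogeneity test). Malt1 was high in replicate 1 alone, at 277, 87.7 and 88.3 CPM.

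Most other lectin receptors were scarce. Of 37 listed, 8 reached 1 TPM in every library, 28 had a mean under 1 TPM and 10 were listed at 0. Clec2d, the ligand of an inhibitory natural killer receptor, was the highest, at 104, 51.0 and 98.3 TPM. Cd69, an early activation marker, had 36.2, 20.2 and 64.3 TPM, and the mannose receptor Mrc1 had 34.5, 15.4 and 26.8 TPM. In CPM Clec2d (144, 95.7 and 137) and Mrc1 (243, 148 and 190) had the library order of Clec4e. Cd69 (76.9, 56.4 and 132 CPM) did not. Clec4e, Clec4a1, Clec4a3 and Clec4d were above all 37 in their means.

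The labelled cell type was checked against markers. All 13 macrophage markers, among them Lyz2, C1qb and Mpeg1, reached 1 TPM in every library, with a median of 294 ± 50.9 TPM, and 10 were lowest in replicate 1 in CPM. Of 10 neutrophil markers 3 did, S100a8, S100a9 and Mmp8, and the list summed to 12.8, 12.9 and 10.8 TPM in replicates 1, 2 and 3. Of 10 dendritic cell markers 2 did (Batf3 and Ccr7), with sums of 3.57, 3.68 and 3.72 TPM. Inflammatory monocyte markers, 5 of 8 at that level and led by Plac8, summed to 40.6, 35.8 and 75.1 TPM, highest in replicate 3. Replicate 3 was the highest library of Clec4a1 and Clec4a3. It was also the highest for the sum of the macrophage markers (8165, 7287 and 9586 TPM) and for that of all protein-coding genes. The part of monocytes in the levels of Clec4a1 and Clec4a3 was not tested.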

How the data were processed

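Expected counts per gene and per transcript, estimates that need not be whole, were deposited by the authors without normalisation, with a posterior SD (a score of how far shared reads blur a count) beside each. TPM was deposited in the gene table and in both transcript tables, and percents of a gene's TPM per transcript were recomputed from the deposited TPM. The files' notes name mm10 and GENCODE M21; strand setting, aligner and quantifier: not given in the sources used here. Members, gene lists, motifs and exon comparisons were chosen with earlier results of these data known.

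Counts were rounded and scaled by TMM (edgeR 4.0.16, R 4.3.3). Genes averaging 10 counts or more (13827) entered a chi-square test of Poisson heterogeneity with 2 degrees of freedom, adjusted by Benjamini-Hochberg at 0.05, and an intercept-only edgeR fit for variation. The heterogeneity test was tested on simulated data. Pairs were compared by an exact sign-flip test on log2(TPM + 1). The limit that a count of 0 sets, taken as 3 counts, was 0.0625, 0.0551 and 0.0561 CPM in replicates 1, 2 and 3, for counting error only. Genes named are the 9 members, the 3 highest and the lowest of each list or its markers at 1 TPM or more, genes of fixed pairs, transcripts with at least 5% of a gene's TPM, and genes inside each run. Alternatives were DESeq2 1.42.0 size factors, other filters, posterior means, rescaled TPM, a pseudocount of 0.1, the kallisto-layout table and leaving out each replicate. Protein sequences were not used here. Figures were drawn with matplotlib 3.10.9.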

Additional observations from a re-analysis of the deposited data

How the results depend on the processing

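No paired analysis was possible because the libraries form 1 group. All 9 members were called under every scaling, count estimate and filter on low counts tried, and 8 or 9 when a replicate was left out. The share of all genes tested that was called was less steady than the members' number, from 70.4% in the main setting with all 3 libraries. It fell well below that when any replicate was left out, and when the filter was lowered to an average of 1 count. It rose with the filter raised to an average of 100 counts, and less so with scaling by total expected counts. With DESeq2 size factors or posterior means it stayed close to 70.4%. The members' median of 77.5 TPM became 32.9 in the kallisto-layout table, 242 after TPM was rescaled over protein-coding genes, and 72.7 to 85.0 when a replicate was left out. The number lowest in replicate 2 was 4 in CPM under each scaling and 8 in unscaled TPM, an alternative chosen after seeing the data. Clec4e minus Clec4a1 ran from -0.17 (without replicate 1) to 0.56 (without replicate 2) on the log2 scale. Clec4a3 minus Clec4d ran from -0.13 (without replicate 2) to 0.38 (without replicate 1), and was -0.11 in the kallisto-layout table; the cause was not tested. No other pair difference changed its sign under any alternative tried, but 4 moved by over 1.5 times. Without replicate 2, Clec4a2 minus Clec7a was 0.28, Clec7a minus Clec4n 0.21 and Clec4n minus Clec4a2 -0.49. Clec4n minus Clec5a was 0.27 in the kallisto-layout table. With the filter lowered to an average of 1 count, the median coefficient of variation of all genes kept rose from 0.166 to 0.261, while that of the members was 0.166. With the filter raised to an average of 100 counts it was 0.143 for all genes kept and 0.172 for the members. With expected counts of 47972048 or more per library, 3 counts stood for at most 0.0625 CPM. Shares of 16 of 27 named transcripts moved by more than 1 SD between tables, by up to 19.3 percentage points. TPM in the kallisto-layout table was 0.39 to 0.49 of that in the gene table.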
